A study of Mus musculus with 36 samples.

Results

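Mouse embryonic fibroblasts carrying a deletion of the kinase GCN2 were compared with wild-type (WT) fibroblasts, both untreated, by RNA sequencing. The comparison uses 6 of the 36 libraries of the study, chosen by genotype and treatment labels: 3 libraries of the untreated GCN2-deletion line and 3 of the untreated WT line. Both lines were grown in RPMI medium with fetal bovine serum, and neither received starvation medium, thapsigargin or solvent. Where a second set of libraries was needed, the same lines given the solvent DMSO were used (3 libraries each), and the untreated PERK-deletion line (3 libraries) served for comparison with another deletion line. The remaining libraries, from starved and thapsigargin-treated cells, enter here through the shared estimate of the spread. The labels name 1 line per genotype and call the replicates technical, so genotype and cell line cannot be told apart, and p-values measure only the spread between technical replicates. The removed stretch of the gene is not labelled, and neither are the strain, sex and litter of the lines.

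GCN2, encoded by Eif2ak4, is a kinase that binds uncharged tRNA when amino acids run short. It phosphorylates the translation factor eIF2alpha, as do PERK in the membrane of the endoplasmic reticulum (ER), PKR, which binds double-stranded RNA, and HRI, which senses haem. Phosphorylated eIF2alpha slows most protein synthesis while favouring translation of ATF4, a transcription factor for genes of amino acid synthesis, amino acid uptake and tRNA charging. The untreated state shows what the lines differed in before any stress was applied.

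The data are TPM values (transcript abundances normalized for length and scaled to the same fixed total in every library), which keep no record of read depth. The GCN2-deletion libraries held 13126 to 13413 genes at 1 TPM or more, and the WT libraries 12777 to 13972. Mitochondrially encoded transcripts made up 6.124% to 6.665% of all TPM in the GCN2-deletion line and 7.261% to 9.491% in WT. WT replicate 1 stood apart from the other WT libraries: it had the highest mitochondrial share (9.491%), the most genes at 1 TPM, and correlations of 0.962 and 0.967 with the other WT libraries, whose own correlation was 0.982. The first principal component, with 61.1% of the variance among the 6 libraries, separated the lines. Fibroblast markers were abundant in both. List sums here and below cover the tested members. The sum of the fibroblast list was 5680, 5701 and 5682 TPM in the GCN2-deletion libraries, against 4509, 4336 and 4386 TPM in the WT libraries. Of its 14 genes 12 were tested, 5 were higher and 4 lower in the GCN2-deletion line, among them Pdgfra (higher), Vim (higher), Col3a1 (lower) and Ddr2 (lower). The 2 of 13 epithelial markers that passed the expression filter summed to 3.25, 3.32 and 3.15 TPM in the GCN2-deletion libraries and 7.87, 9.70 and 11.5 TPM in WT. Of 12 genes in each of 4 other lists, 4 endothelial, 2 macrophage, 4 skeletal muscle and 7 neural markers passed this filter. The neural list summed to 173, 160 and 187 TPM in the GCN2-deletion libraries and 122, 128 and 116 TPM in WT, with 4 members higher and 2 lower. Cartilage and bone markers, 7 of 12 tested, summed to 281, 249 and 285 TPM in the GCN2-deletion libraries and 511, 402 and 407 TPM in WT, with 3 higher and 2 lower. The part of such cells in the results was not tested. In bulk RNA, fewer cells of a type and less RNA per cell cannot be told apart.

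Differences between the lines were spread over a large part of the transcriptome. On the log2(TPM + 1) scale 16083 genes were tested, and the GCN2-deletion line was higher than WT in 3409 (21.2%) and lower in 3731 (23.2%) (limma, adjusted p under 0.05). By at least 2-fold, 897 genes were higher (5.58%) and 667 lower (4.15%), and the median log2 difference of all genes tested was -0.05. Among the 12206 protein-coding genes 25.4% were higher and 26.8% lower, and the 3 and 3 libraries did not overlap for 21.8% of all genes tested on the higher side and 21.9% on the lower side. Without WT replicate 1 the counts were 3462 higher and 2866 lower, of which 3116 and 2709 were shared with the full set. The 2-fold counts without it were 941 higher and 541 lower, and 870 and 515 of these were shared.

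The same line comparison in the DMSO libraries, which shares no library with the untreated one, gave 4153 genes higher (25.8%) and 2816 lower (17.5%), 43.3% in all, with 6.11% higher and 3.07% lower by 2-fold. Both comparisons came from the same fit and used the same estimate of the spread for each gene, so their calls are not fully separate. Of the 897 genes that were 2-fold higher untreated, 877 (97.8%) were called higher again with DMSO and 0 were called lower. Of the 667 genes that were 2-fold lower, 574 (86.1%) were called lower again and 3 were called higher. At any fold the shares were 89.1% for higher and 63.4% for lower genes. The change of the line difference between untreated and DMSO cells passed the test for 1 gene (0.00622%), the microRNA gene Mir323, while 1468 genes (9.13%) had an unadjusted p under 0.05.

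**Figure D1:**
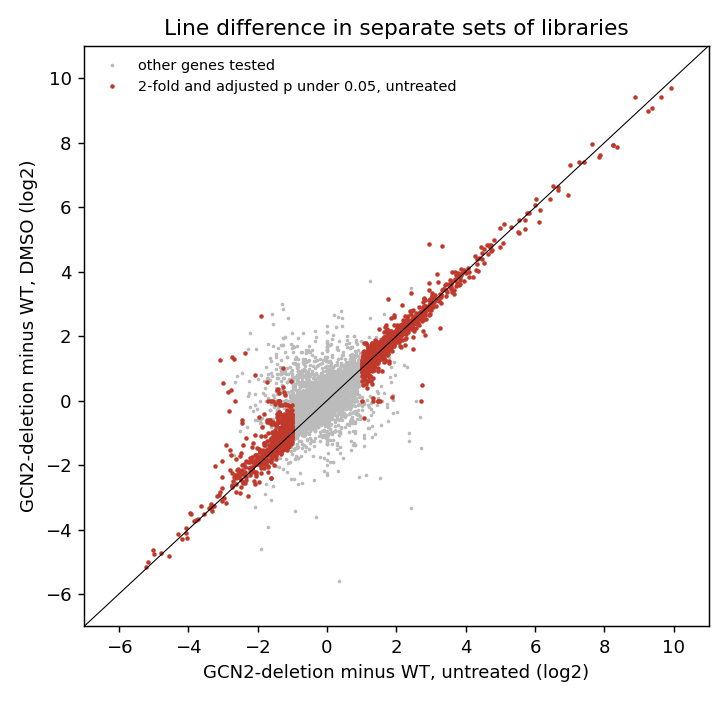
Each point is a gene tested. The horizontal axis gives the untreated difference and the vertical axis the DMSO difference, both GCN2-deletion minus WT in log2 units. Red points, past 2-fold and adjusted p under 0.05 untreated, lie mostly along the diagonal line of equal differences: 877 of 897 higher and 574 of 667 lower genes were called again in the DMSO libraries.

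The targeted gene was lower by about the same amount against either comparison line, but it was not absent. Eif2ak4 (GRCm38 chromosome 2, 118388618 to 118475234) stood at 4.54, 5.52 and 5.69 TPM in the GCN2-deletion libraries, against 28.1, 25.2 and 20.5 TPM in the WT libraries. The libraries of the lines did not overlap, and the log2 difference was -2.03 (SE 0.13, limma adjusted p = 2.11e-13). Against the PERK-deletion line, which averaged 22.7 ± 3.29 TPM, the log2 difference was -1.92. The comparisons among the lines share libraries, so their values are given side by side. The GCN2-deletion line against the PERK-deletion line had 47.1% of genes called, 16.1% higher and 31% lower (4.02% and 4.97% by 2-fold). The PERK-deletion line against WT had 49.6% called, 31.1% higher and 18.5% lower (6.6% and 3.64% by 2-fold). A TPM value covers the whole gene, so transcript outside the deleted stretch would count in it.

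All of the other eIF2alpha kinases also differed between the lines. Eif2ak3, which encodes PERK, was higher, with 10.7, 8.80 and 10.98 TPM in the GCN2-deletion libraries and 7.52, 7.46 and 5.97 TPM in WT (log2 difference 0.48, SE 0.10, limma adjusted p = 0.000167). Eif2ak2, which encodes PKR and is itself interferon-inducible, was lower, with 15.3, 13.2 and 16.9 TPM in the GCN2-deletion libraries and 41.6, 32.8 and 24.3 TPM in WT (log2 difference -1.05, SE 0.14, limma adjusted p = 2.37e-07). The WT libraries were uneven for this gene, and its log2 difference in the DMSO libraries was -0.44. Eif2ak1, which encodes HRI, was slightly lower (log2 difference -0.27, SE 0.06, limma adjusted p = 0.000275). Among 18 tested genes for GCN2 regulators, eIF2, eIF2B and the eIF2alpha phosphatase, 4 were higher and 5 lower, close to the share for all genes. Of these, Eif2b5, a catalytic subunit of eIF2B, was the one that rose most (log2 difference 0.44), and Abcf1, an eIF2-binding ATPase, the one that fell most (log2 difference -0.43).

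**Figure D2:**
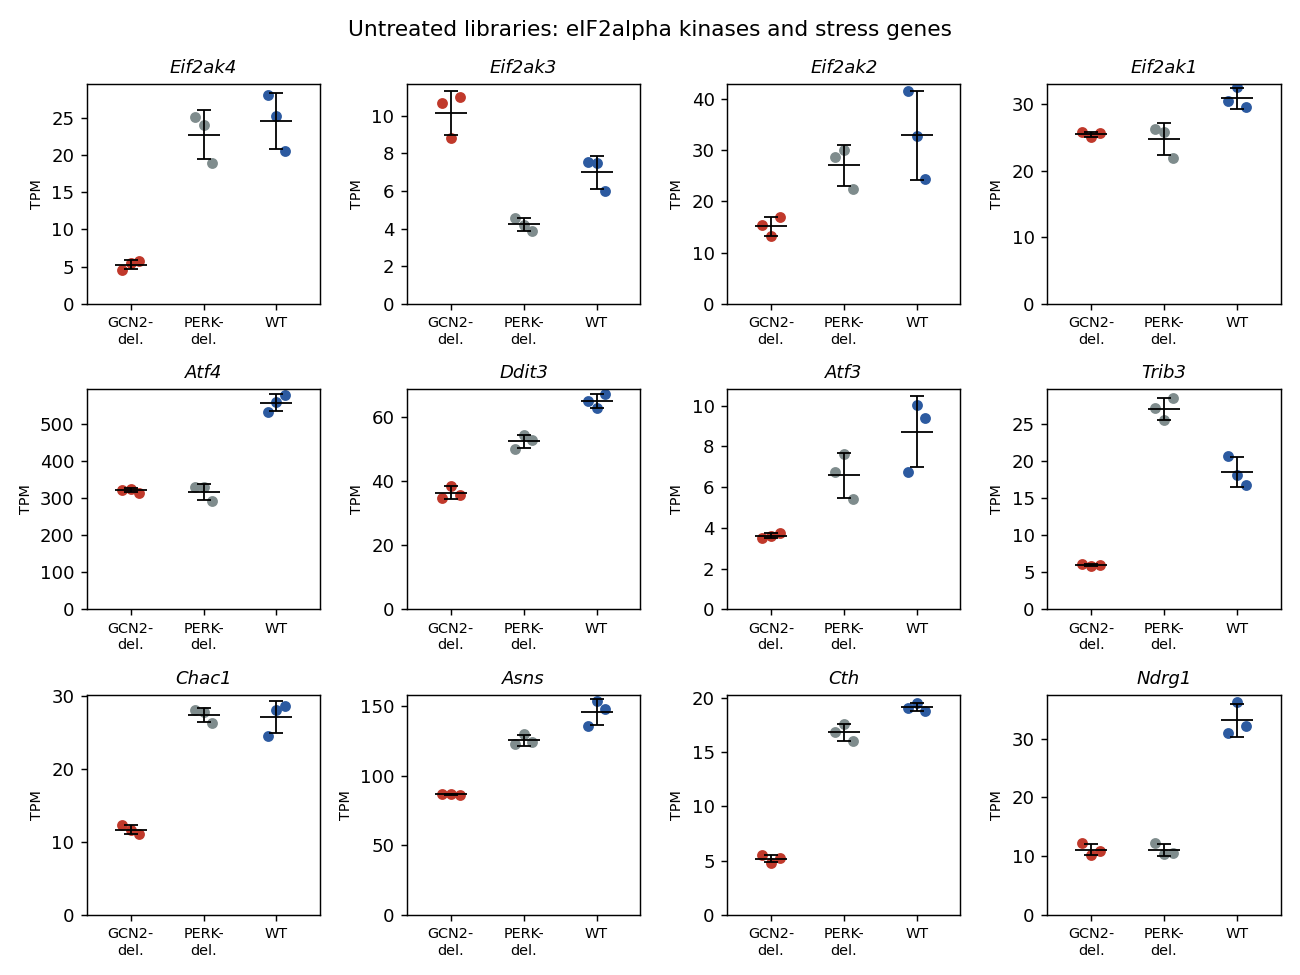
TPM of the 4 eIF2alpha kinase genes and 8 stress genes in each untreated library of the GCN2-deletion, PERK-deletion and WT lines. Points are libraries, the long bar is the mean and the error bars are the SD (n = 3). Eif2ak4, Trib3, Chac1 and Cth were low in the GCN2-deletion libraries only among the lines shown, whereas Atf4 and Ndrg1 were at like levels in both deletion lines.

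Genes of the ATF4 and CHOP stress programme were lower more often than genes at large. Of 25 tested, 14 were lower and 4 higher, with a median log2 difference of -0.37 beside -0.05 for all genes tested. In the DMSO libraries 17 were lower and 3 higher, with a median of -0.48. Trib3, a pseudokinase that ATF4 and CHOP induce, stood at 6.13, 5.89 and 6.02 TPM in the GCN2-deletion libraries, against 20.7, 18.2 and 16.7 TPM in WT. Its log2 difference was -1.47 (SE 0.12, limma adjusted p = 4.09e-11), and every GCN2-deletion library lay below every WT library. Chac1, an enzyme that breaks down glutathione, stood at 12.3, 11.7 and 11.2 TPM in the GCN2-deletion libraries, against 24.6, 28.1 and 28.7 TPM in WT (log2 difference -1.14, SE 0.11, limma adjusted p = 2.15e-09). Atf3, a stress-induced repressor, was lower by a log2 difference of -1.06 (SE 0.14, limma adjusted p = 6.37e-07).

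The promoters of Trib3 and Chac1 are shown because both genes were low in the GCN2-deletion line against both other lines, and both hold the core of the site that ATF4 and C/EBP factors bind, TGATGNAA, on either strand. They are RefSeq sequences of GRCm38.p6, from 250 bases before the start of transcription to 50 after it, read along the gene, with the motif in capitals. The Trib3 window is chr2:152344011-152344310 on the minus strand, and the Chac1 window is chr2:119350992-119351291 on the plus strand.

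Trib3: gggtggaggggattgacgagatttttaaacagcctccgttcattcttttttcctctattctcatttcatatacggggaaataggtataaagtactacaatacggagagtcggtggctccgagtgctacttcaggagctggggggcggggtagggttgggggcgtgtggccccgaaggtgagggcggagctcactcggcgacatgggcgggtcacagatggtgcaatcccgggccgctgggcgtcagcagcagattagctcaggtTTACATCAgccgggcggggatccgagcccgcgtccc

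Chac1: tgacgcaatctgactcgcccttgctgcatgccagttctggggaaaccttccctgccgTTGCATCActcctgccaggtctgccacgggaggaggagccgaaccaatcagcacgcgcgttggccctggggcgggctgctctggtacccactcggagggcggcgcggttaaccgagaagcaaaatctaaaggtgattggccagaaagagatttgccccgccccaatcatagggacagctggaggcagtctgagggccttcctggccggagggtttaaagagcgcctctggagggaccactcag

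Of the 25 genes of the programme that were tested, 23 had a promoter in the table, and 8 of these (34.8%) held the motif, whether or not they differed between the lines. Among all 27025 genes with a promoter the share was 4.51%. A match is a description of the letters in the window and was not tested for binding.

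The genes of this programme did not move as a unit, and the comparison with the PERK-deletion line divided them. Against that line Trib3 had a log2 difference of -2.002 and Chac1 one of -1.16, while the median over the 25 genes was 0.02. Atf4 itself, named here after its values were seen, stood at 323, 326 and 315 TPM in the GCN2-deletion libraries, against 535, 562 and 579 TPM in WT (log2 difference -0.79, SE 0.05, limma adjusted p = 5.25e-14). The PERK-deletion line averaged 318 ± 21.6 TPM of Atf4, a log2 difference of 0.02 from the GCN2-deletion line that did not pass (limma adjusted p = 0.777). Ndrg1, a stress-responsive gene on chromosome 15 like Atf4, averaged 11.1 ± 0.969 TPM in the GCN2-deletion line, 11.1 ± 0.996 TPM in the PERK-deletion line and 33.1 ± 2.73 TPM in WT. Ddit3, which encodes CHOP and was also named after its values were seen, stood at 34.9, 38.7 and 35.8 TPM in the GCN2-deletion libraries, against 65.2, 63.1 and 67.2 TPM in WT. Its log2 differences were -0.82 from WT and -0.52 from the PERK-deletion line. The members that were higher were Vldlr (log2 difference 1.85), a lipoprotein receptor, Adm2 (0.77) and Stc2 (0.49), both secreted peptides, and Map1lc3b (0.23), an autophagy protein. Adm2 and Map1lc3b did not pass in the DMSO libraries.

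Enzymes of amino acid synthesis and one-carbon metabolism were mostly lower. Of 19 tested, 13 were lower and 1 higher, with a median log2 difference of -0.38. Cth, which makes cysteine from cystathionine, stood at 5.46, 4.81 and 5.24 TPM in the GCN2-deletion libraries, against 19.1, 19.5 and 18.8 TPM in WT (log2 difference -1.71, SE 0.08, limma adjusted p = 3.51e-16). Aldh1l2, a mitochondrial folate enzyme, stood at 17.0, 12.6 and 19.96 TPM in the GCN2-deletion libraries and 70.7, 65.4 and 46.1 TPM in WT (log2 difference -1.82). Pck2, the mitochondrial enzyme that makes phosphoenolpyruvate, and Psph, the last enzyme of serine synthesis, had log2 differences of -1.22 and -1.01. Cth was also lower against the PERK-deletion line (log2 difference -1.53), whereas Aldh1l2 averaged 16.5 ± 3.70 TPM in the GCN2-deletion line and 16.5 ± 1.81 TPM in the PERK-deletion line. The member that was higher was Glul, glutamine synthetase, with 25.0, 23.5 and 26.0 TPM in the GCN2-deletion libraries and 10.1, 12.9 and 10.9 TPM in WT (log2 difference 1.08, limma adjusted p = 3.52e-12). None of the 19 enzymes lies on chromosome 15.

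Cytosolic aminoacyl-tRNA synthetases, which charge tRNAs with amino acids, followed the same direction with smaller differences. Of 20 tested, 12 were lower and 2 higher, with a median log2 difference of -0.21. Tars, the threonine enzyme, on chromosome 15, fell most, with 135, 122 and 132 TPM in the GCN2-deletion libraries and 256, 272 and 246 TPM in WT (log2 difference -0.98). Vars, Mars and Aars, the valine, methionine and alanine enzymes, had log2 differences of -0.52, -0.51 and -0.46. Hars, the histidine enzyme, on chromosome 18, was higher by 0.33.

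Amino acid transporters were divided. Of 19 tested, 8 were lower and 4 higher, with a median log2 difference of -0.09. Slc1a5, a glutamine and neutral amino acid carrier, stood at 17.2, 21.5 and 19.5 TPM in the GCN2-deletion libraries, against 148, 102 and 92.6 TPM in WT (log2 difference -2.48, SE 0.15, limma adjusted p = 4.09e-14). The glycine carrier Slc6a9 (log2 difference -1.49), the glutamate carrier Slc1a3 (-1.46) and the neutral amino acid carrier Slc38a2 (-0.91) were also lower. Slc38a4, another neutral amino acid carrier, went the other way, with 87.2, 84.3 and 101 TPM in the GCN2-deletion libraries and 6.43, 7.19 and 5.99 TPM in WT (log2 difference 3.61, SE 0.07, limma adjusted p = 2.29e-25). Slc7a2, which carries cationic amino acids, was higher by a log2 difference of 1.60. Slc1a3, Slc38a2 and Slc38a4 all lie on chromosome 15.

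The share of genes that passed was highest closest to the targeted locus. Within 1 Mb of Eif2ak4, 17 of 26 genes tested passed, 7 higher and 10 lower (65.4%). Within 5 Mb it was 15 higher and 33 lower of 102 (47.1%), and within 10 Mb 42.8% of 159, beside 44.4% of all genes tested. Nearly all genes within 1 Mb are protein coding, and of all protein-coding genes tested 25.4% were higher and 26.8% lower. Whether the share near the locus exceeds that of protein-coding genes was not tested. By 2-fold, 5 of the 102 were higher and 14 lower. Gatm, an enzyme of creatine synthesis, stood at 12.9, 12.2 and 12.5 TPM in the GCN2-deletion libraries and was listed at 0 in every untreated WT library. Adal, an adenosine deaminase-like enzyme, stood at 8.55, 7.71 and 10.0 TPM in the GCN2-deletion libraries, against 1.05, 1.21 and 0.914 TPM in WT (log2 difference 2.24). Thbs1, the matrix protein thrombospondin-1, whose start lies within 1 Mb, was higher by 1.34, as were Gchfr by 1.46 and Lcmt2 by 1.42. Ivd, an enzyme of leucine breakdown, stood at 22.2, 21.7 and 22.3 TPM in the GCN2-deletion libraries and 102, 68.5 and 59.3 TPM in WT (log2 difference -1.71). Eif3j1, a translation initiation factor subunit, was lower by a log2 difference of -2.03, Jmjd7 by -1.93, Spg11 by -1.42 and the BH3-only protein gene Bmf by -1.22. Chac1 lies in the same interval, 0.921 Mb from Eif2ak4. Against the PERK-deletion line, Adal and Lcmt2 did not pass (log2 differences -0.09 and -0.13), and Gchfr was lower (-0.30). Gatm and Thbs1 were higher than in that line, by log2 differences of 2.38 and 0.78. Ivd, Eif3j1, Jmjd7, Spg11 and Bmf were lower than in it, by -1.03, -1.28, -1.76, -1.34 and -0.56. The deletion and other differences between the lines at this locus cannot be told apart.

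Whole chromosomes differed in level between the lines. Of 652 genes tested on chromosome 15, 401 were lower (61.5%) and 54 higher (8.28%) in the GCN2-deletion line, with a median log2 difference of -0.56. Centred medians were taken over genes with a mean of at least 5 TPM across the untreated libraries, 436 of them on chromosome 15. After each library was centred on its own median, the chromosome 15 median stood at -0.575, -0.533 and -0.592 in the GCN2-deletion libraries and at -0.681, -0.669 and -0.665 in the PERK-deletion libraries. The WT libraries, whose mean is the zero, stood at -0.004, -0.02 and 0.009. Both deletion lines thus lay below WT, and the PERK-deletion libraries lay below the GCN2-deletion libraries without overlap. Over all 652 genes and without centring, the median difference between the deletion lines was -0.00 on chromosome 15, beside -0.135 for all genes tested. The shift ran along the whole chromosome: in 20 Mb intervals the share of lower genes was between 41.9% and 68.9%. The median in the DMSO libraries was -0.44.

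Smaller shifts were seen elsewhere. Chromosome 18 had 53.4% of its genes higher and a median log2 difference of 0.32, and its centred medians were 0.432, 0.396 and 0.444 in the GCN2-deletion libraries. Chromosomes 9, 13 and 12 had 41%, 34.5% and 31% of their genes higher. Chromosomes 17, 10 and 19 had 41.4%, 40.7% and 38% lower. Chromosome 7 was one where the deletion lines parted: its median was 0.01 for the GCN2-deletion line minus WT and -0.31 for the PERK-deletion line minus WT. DNA copy number was not analysed here, so whether the shifts follow it was not tested. The ATF4 gene list has 3 tested members on chromosome 15, 2 of them lower, the amino acid transporters have 4, 3 of them lower, and the HOX list 9, 5 of them lower. All 4 ribosomal protein genes and both sterol genes there were lower, and the interferon and MHC class I lists have none there.

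**Figure D3:**
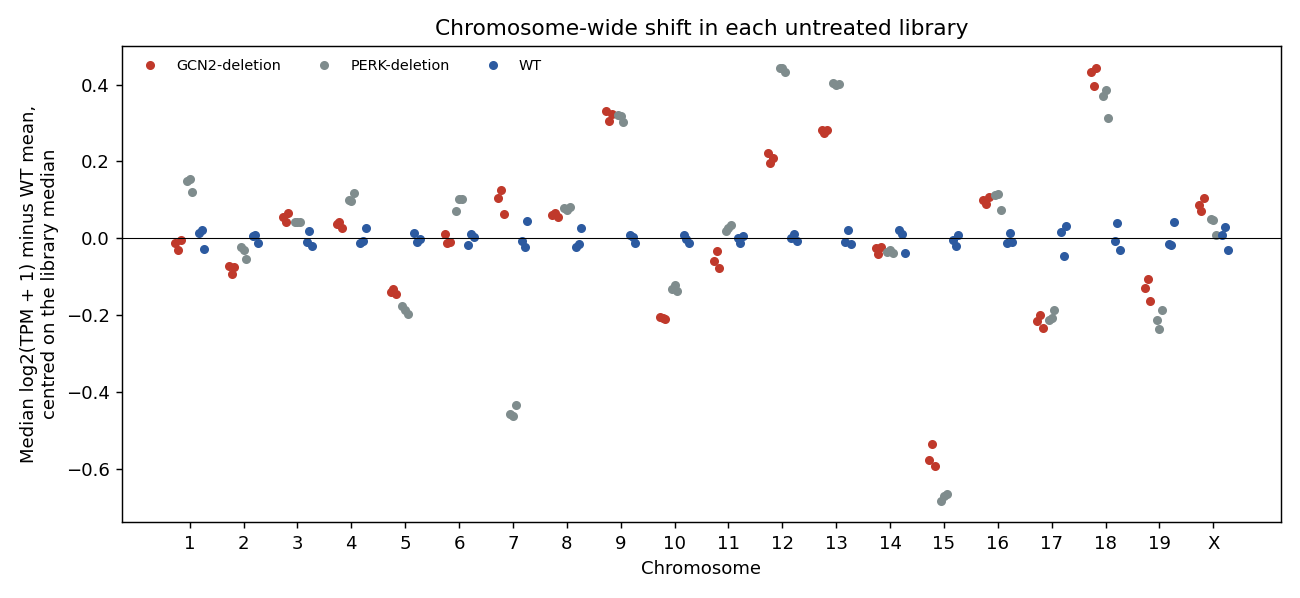
Median log2(TPM + 1) of the genes of each chromosome, minus the WT mean and centred on each library's own median, for every untreated library of the GCN2-deletion, PERK-deletion and WT lines. Genes with a mean of at least 5 TPM across these libraries were used. Points are libraries. Chromosome 15 lies near -0.6 in both deletion lines and near 0 in WT, and chromosome 18 lies above 0.3 in both.

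Several of the largest differences were secreted or matrix-associated proteins. Smoc2, a matrix protein that binds calcium, stood at 213, 208 and 220 TPM in the GCN2-deletion libraries and 0.627, 0.751 and 0.591 TPM in WT (log2 difference 7.02, SE 0.11, limma adjusted p = 2.08e-27). The collagen-associated protein gene Cthrc1 stood at 31.7, 29.8 and 30.4 TPM in the GCN2-deletion libraries and was listed at 0 in every untreated WT library. Both were near absent in WT. Also among the 15 genes that rose most were Nsg1 (log2 difference 5.77), a vesicle protein of neurons, Crabp1 (5.53), which binds retinoic acid, Gjb2 (5.503), a connexin, and C1qtnf3 (5.30), a secreted protein. Ltbp2 (4.99), which binds microfibrils, the procollagen protease Tll1 (4.52) and the LIM protein gene Fhl1 (4.47) were in this group too, as were Dlk1, Eif2s3y and a pair of genes with near-identical copies. The PERK-deletion line averaged 92.9 TPM of Crabp1, 45.6 TPM of Fhl1, 9.05 TPM of Nsg1 and 6.29 TPM of Ltbp2. It averaged 1.58 TPM of Tll1, 1.55 TPM of Smoc2, 0.864 TPM of C1qtnf3 and 0.199 TPM of Cthrc1. Each of these lay between the other lines, and Gjb2 was listed at 0 in the PERK-deletion libraries.

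The genes that fell most included transcription factors, surface proteins and a growth factor. Gpnmb, a glycoprotein of lysosomes and the cell surface, stood at 2.65, 3.92 and 3.81 TPM in the GCN2-deletion libraries and 80.9, 85.4 and 73.5 TPM in WT (log2 difference -4.19, SE 0.11, limma adjusted p = 3.81e-22). Ly6a, which encodes the surface antigen Sca-1, stood at 9.64, 9.01 and 8.56 TPM in the GCN2-deletion libraries and 161, 158 and 169 TPM in WT (log2 difference -4.02). Pdpn, podoplanin, stood at 3.39, 3.28 and 4.21 TPM in the GCN2-deletion libraries and 56.9, 64.0 and 60.2 TPM in WT (log2 difference -3.73). A lack of overlap between the libraries was a condition for picking these genes, so it adds nothing here. Cadm1 (log2 difference -4.06), an adhesion molecule, Bmp4 (-3.95), a bone morphogenetic protein, Msln (-3.93), mesothelin, and Ly6c1 (-3.84), a surface antigen, were lower too. So were Sprr1a (-3.77), a cornified envelope protein, Ntn4 (-3.63), a netrin, Gstt1 (-3.53), a glutathione transferase, and Glipr1 (-3.40). Of the 15 genes that fell most, 3 lie on chromosome 15, and of the 15 that rose most, 2 do.

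Some of the largest values belonged to genes with a near-identical copy, whose reads cannot be assigned with certainty. Eno1b matches the glycolytic enzyme gene Eno1 at 99.5% identity over 92.2% of its length. It stood at 1156, 1192 and 1082 TPM in the GCN2-deletion libraries and 0.158, 0.289 and 0.127 TPM in WT, while Eno1 stood at 1153, 1115 and 1096 TPM in the GCN2-deletion libraries and 1367, 1730 and 1798 TPM in WT. Summed over the family, the mean was 2267 TPM in the GCN2-deletion line and 1633 TPM in WT. Hmga1b, a chromatin protein gene, had 381, 424 and 401 TPM in the GCN2-deletion libraries and 0.630, 1.21 and 1.27 TPM in WT. Its parent Hmga1, at 99.8% identity, did not pass (log2 difference 0.10, limma adjusted p = 0.147), and the pair summed to 1224 TPM in the GCN2-deletion line and 771 TPM in WT. The PERK-deletion line averaged 234 TPM of Hmga1b and 0.452 TPM of Eno1b.

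For other families the sum nearly removed the difference. Ahcy, the enzyme that hydrolyses S-adenosylhomocysteine, stood at 10.6, 8.54 and 9.19 TPM in the GCN2-deletion libraries and 210, 262 and 260 TPM in WT. Its copy Gm4737, at 99.7% identity, stood at 275, 284 and 281 TPM in the GCN2-deletion libraries and 0, 0.741 and 0 TPM in WT. The family summed to 289 TPM in the GCN2-deletion line and 244 TPM in WT, so the level of Ahcy alone (log2 difference -4.55) is uncertain. The ribosomal protein gene Rpl3 alone averaged 1044 ± 68.3 TPM in the GCN2-deletion line and 1978 ± 149 TPM in WT, while its copy Rpl3-ps1 was higher (log2 difference 9.27). Summed over Rpl3 and its 7 copies, the mean was 1866 TPM in the GCN2-deletion line and 1980 TPM in WT. Rplp0, another ribosomal protein gene, remained lower in the sum, with 1619 TPM in the GCN2-deletion line and 3551 TPM in WT. The copies Gm4737 and Rpl3-ps1 were named after their values were seen. Apol9a and Apol9b, at 98.5% identity, were both lower, with log2 differences of -4.06 and -2.73.

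Genes of the Y chromosome were present in the GCN2-deletion line and near absent in WT. Ddx3y stood at 33.6, 28.6 and 44.3 TPM in the GCN2-deletion libraries, against 0.736, 0.839 and 0.461 TPM in WT (log2 difference 4.43, SE 0.11, limma adjusted p = 4.28e-23). Eif2s3y, Kdm5d and Uty had log2 differences of 4.72, 3.55 and 3.24, and all 4 Y-linked genes tested were under 1.1 TPM in every untreated WT library. In the PERK-deletion line the same genes averaged between 13.0 TPM (Uty) and 54.8 TPM (Eif2s3y), and none of the 4 passed the test against the GCN2-deletion line. The X-linked homologues Ddx3x, Eif2s3x, Kdm5c and Kdm6a did not pass, with log2 differences of -0.12, -0.04, 0.14 and -0.20, and the signs of Ddx3x, Eif2s3x and Kdm6a turned under other settings. Kdm5c passed as higher under 3 other settings, the DMSO libraries among them (log2 difference 0.35), and Kdm6a under 2 and Ddx3x under 1 passed as lower. The other 6 genes of the list did not reach the expression filter.

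Imprinted genes, which are normally read from a single parental copy, were higher as a rule. Of 24 tested of 31, 16 were higher, 13 of them by 2-fold, and 2 were lower, with a median log2 difference of 1.07. A cluster on chromosome 12 gave the widest gaps. Meg3, its long noncoding RNA, stood at 125, 124 and 133 TPM in the GCN2-deletion libraries and 0.302, 0.267 and 0.199 TPM in WT (log2 difference 6.67, SE 0.22, limma adjusted p = 2.34e-20). Dlk1, its Notch-related surface protein, stood at 338, 332 and 323 TPM in the GCN2-deletion libraries and 5.58, 5.76 and 4.69 TPM in WT (log2 difference 5.71), and the noncoding RNA Rian had a log2 difference of 6.66. Meg3 and Dlk1 are read from opposite parental copies, and both were high in the GCN2-deletion line. H19 on chromosome 7, another imprinted noncoding RNA, stood at 55.7, 50.5 and 51.2 TPM in the GCN2-deletion libraries and 1.17, 1.58 and 1.56 TPM in WT (log2 difference 4.46). The PERK-deletion line averaged 0.830 ± 0.304 TPM of Meg3, 2.87 ± 0.648 TPM of Dlk1 and 0.805 ± 0.172 TPM of H19, near the WT levels. The lower members were Airn (log2 difference -1.01), which did not pass in the DMSO libraries, and Slc22a18 (-0.49), which stayed under 1 TPM.

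HOX genes, which record position along the body and limb, were more often higher than lower, and the direction differed between clusters. Of 29 tested of 39, 18 were higher and 5 lower, with a median log2 difference of 0.85. Hoxa11 stood at 11.7, 11.1 and 11.1 TPM in the GCN2-deletion libraries and 0.790, 0.630 and 0.530 TPM in WT (log2 difference 2.90, SE 0.09, limma adjusted p = 9.19e-21). Hoxa7 had a log2 difference of 2.74, and Hoxb9 stood at 40.4, 40.5 and 41.8 TPM in the GCN2-deletion libraries and 5.34, 6.10 and 5.54 TPM in WT (log2 difference 2.66). The 5 lower genes all belong to the C cluster on chromosome 15. Hoxc10 stood at 11.4, 10.3 and 10.8 TPM in the GCN2-deletion libraries and 44.1, 49.0 and 47.3 TPM in WT (log2 difference -2.01, limma adjusted p = 4.79e-19), and Hoxc11, Hoxc13 and Hoxc9 had log2 differences of -1.37, -1.04 and -0.72. Hoxc9 did not pass in the DMSO libraries. Hoxc8, in the same cluster, was higher by 2.42, with 30.8, 28.1 and 30.3 TPM in the GCN2-deletion libraries and uneven WT libraries of 9.07, 4.09 and 2.70 TPM. The PERK-deletion line was low for these C genes, averaging 0.139 ± 0.0564 TPM of Hoxc10 and 0.282 ± 0.157 TPM of Hoxc8.

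Other patterning transcription factors also differed in both directions. Of 44 tested of 57, 21 were higher and 12 lower, with a median log2 difference of 0.27. Shox2, a limb and heart factor, stood at 0.899, 0.512 and 0.795 TPM in the GCN2-deletion libraries and 73.2, 61.1 and 51.3 TPM in WT (log2 difference -5.17, SE 0.17, limma adjusted p = 3.17e-20). Pax3, a factor of neural crest and muscle precursors, stood at 0.0160, 0.0582 and 0.0379 TPM in the GCN2-deletion libraries and 20.8, 20.2 and 17.8 TPM in WT (log2 difference -4.31). Pitx1, a hindlimb factor, had a log2 difference of -3.33 and Irx1 one of -2.75. The GCN2-deletion line in turn had factors that WT lacked. Zic1, known from neural and dorsal mesoderm development, stood at 12.01, 15.6 and 17.5 TPM in the GCN2-deletion libraries and 0.0487, 0.0299 and 0.0180 TPM in WT (log2 difference 3.94). Alx1, a craniofacial factor, had a log2 difference of 3.87 and Foxc2, a mesenchymal factor, one of 2.24. Pax9 stood at 4.997, 5.17 and 4.82 TPM in the GCN2-deletion libraries and was listed at 0 in the untreated WT libraries. Zic1 averaged 0.0212 ± 0.0205 TPM in the PERK-deletion line, whereas Alx1 averaged 26.3 ± 2.03 TPM there.

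**Figure D4:**
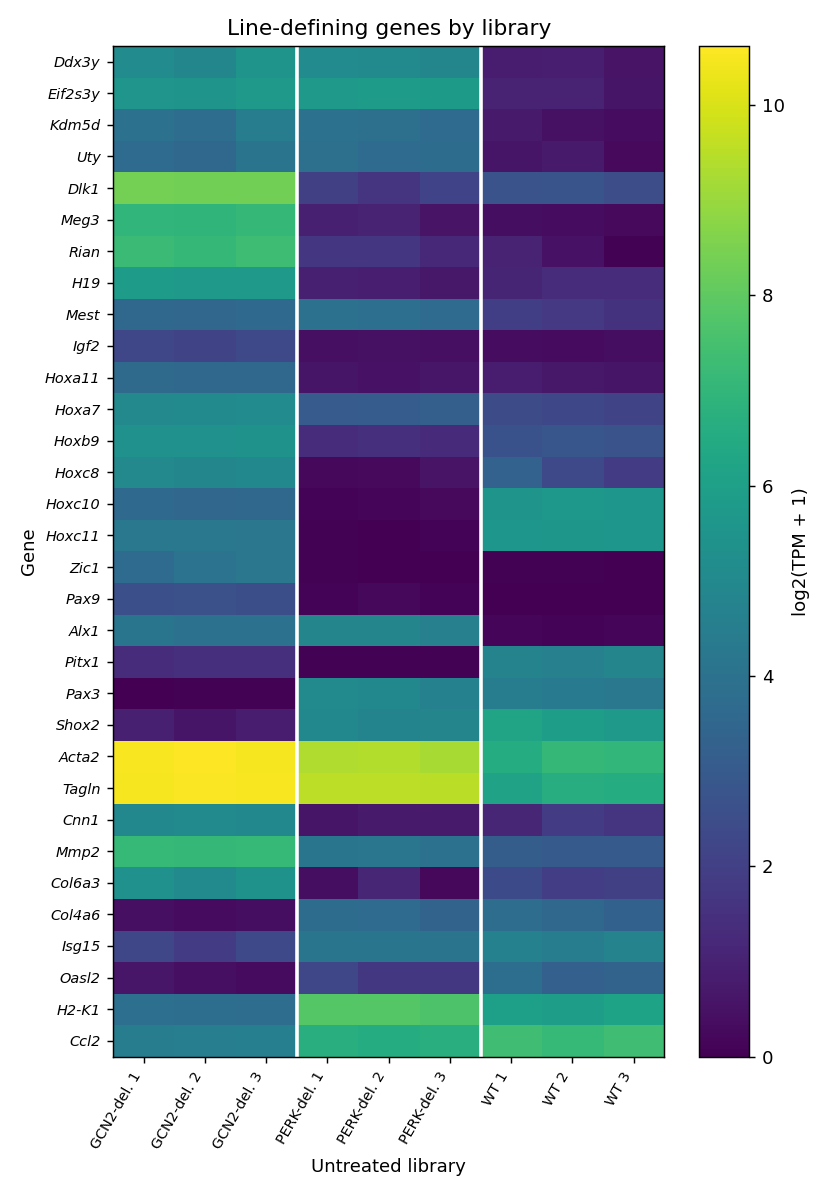
log2(TPM + 1) of 32 genes in each of 9 untreated libraries, with the GCN2-deletion line left, the PERK-deletion line in the middle and WT right. Color gives the level. The Y-linked genes are high in both deletion lines, Dlk1, Meg3, Rian and H19 in the GCN2-deletion line alone among those shown, and Pitx1, Hoxc10 and Hoxc11 highest in WT.

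Contractile genes of smooth muscle type were higher in the GCN2-deletion line. Of 16 tested of 17, 13 were higher, 10 of them by 2-fold, and 2 were lower, with a median log2 difference of 1.07. Tagln, an actin-binding protein, stood at 1440, 1522 and 1447 TPM in the GCN2-deletion libraries and 67.8, 96.6 and 93.7 TPM in WT (log2 difference 4.10, SE 0.10, limma adjusted p = 8.68e-23). Acta2, smooth muscle actin, stood at 1480, 1576 and 1439 TPM in the GCN2-deletion libraries and 95.1, 135 and 129 TPM in WT (log2 difference 3.65, limma adjusted p = 1.04e-22). Actg2, another actin, and Cnn1, calponin, had log2 differences of 3.81 and 3.43. Des, which encodes the muscle filament desmin, went down, with 0.0907, 0.0202 and 0.0584 TPM in the GCN2-deletion libraries and 3.62, 4.14 and 2.91 TPM in WT (log2 difference -2.10). Mylk, a myosin kinase named after its value was seen, was the other lower member (log2 difference -0.67), and without WT replicate 1 the list had 1 lower member. The PERK-deletion line also had more Tagln (750 ± 5.92 TPM) and Acta2 (644 ± 37.2 TPM) than WT, but 1.29 ± 0.0129 TPM of Actg2 and 0.639 ± 0.114 TPM of Cnn1.

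The CArG box, the site of serum response factor, occurred in the promoter window of 2 of 14 genes of this list with a promoter (14.3%), and in 1.81% of all genes. The window of Myl9, a myosin light chain gene with a log2 difference of 3.30 that was named after its values were seen, is shown as the example. It is the RefSeq sequence at chr2:156775214-156775513 on the plus strand of GRCm38.p6, with the CArG box in capitals.

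Myl9: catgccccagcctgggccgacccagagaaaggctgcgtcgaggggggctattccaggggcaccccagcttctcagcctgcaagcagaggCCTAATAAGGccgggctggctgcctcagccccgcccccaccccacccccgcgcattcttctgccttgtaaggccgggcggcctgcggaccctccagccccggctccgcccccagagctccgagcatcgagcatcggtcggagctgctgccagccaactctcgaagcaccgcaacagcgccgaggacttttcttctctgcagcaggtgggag

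Genes of the YAP and TGF-beta pathways, which respond to cell tension and to the cytokine TGF-beta, were higher as a group. Of 18 tested, 13 were higher and 1 lower, with a median log2 difference of 0.54. Ctgf, a matricellular growth factor, stood at 513, 568 and 561 TPM in the GCN2-deletion libraries and 70.8, 81.1 and 77.6 TPM in WT (log2 difference 2.82, SE 0.06, limma adjusted p = 7.16e-24). Tgfb3, a ligand of the pathway, stood at 59.4, 58.8 and 60.4 TPM in the GCN2-deletion libraries and 9.80, 9.69 and 8.84 TPM in WT (log2 difference 2.54), and Cyr61 had a log2 difference of 1.41. Tgfbi, a secreted protein named for its induction by TGF-beta, was the exception, lower by a log2 difference of -0.52. The PERK-deletion line averaged 104 ± 5.63 TPM of Ctgf, between the others and nearer to WT. The list as a whole did not follow Ctgf. For PERK-deletion minus WT, 13 of the 18 genes were higher and 1 lower, with a median log2 difference of 0.49. For GCN2-deletion minus PERK-deletion, 8 were higher and 5 lower, with a median of 0.13.

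Collagen chains differed in both directions. Of 21 collagen chains tested, 11 were higher and 7 lower, with a median log2 difference of 0.23. Col6a3, a chain of beaded-filament collagen, stood at 40.1, 32.7 and 41.6 TPM in the GCN2-deletion libraries and 4.19, 2.86 and 2.99 TPM in WT (log2 difference 3.18, SE 0.17, limma adjusted p = 3.76e-15). The fibrillar chains Col11a1 and Col5a3 had log2 differences of 2.73 and 1.70. The basement membrane chains Col4a6, with 0.335, 0.224 and 0.308 TPM in the GCN2-deletion libraries and 13.1, 10.6 and 8.70 TPM in WT, and Col4a5 were lower, with log2 differences of -3.18 and -1.90. Col3a1, a major fibrillar chain, stood at 117, 92.9 and 116 TPM in the GCN2-deletion libraries and 270, 269 and 233 TPM in WT (log2 difference -1.24), and at 0.871 ± 0.549 TPM in the PERK-deletion line. Col4a5 and Col4a6 are neighbours on the X chromosome that are read from a shared promoter region, and they moved in the same direction.

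Matrix glycoproteins, proteoglycans and crosslinking enzymes were higher in 19 and lower in 7 of 33 tested, with a median log2 difference of 0.41. The 33 tested members summed to 6825, 6502 and 7221 TPM in the GCN2-deletion libraries and 4889, 4729 and 4313 TPM in WT, without overlap. The microfibril and elastic fibre proteins Fbn2 and Fbln5 had log2 differences of 3.44 and 2.97, with Fbln5 at 103, 100 and 105 TPM in the GCN2-deletion libraries and 11.3, 13.6 and 11.7 TPM in WT. Thbs2, a thrombospondin, and Has2, a hyaluronan synthase, were higher by 2.32 and 2.06. The small proteoglycan gene Fmod (log2 difference -1.82), Efemp1 (-1.38), Dcn (-1.06) and the phosphoprotein gene Spp1 (-0.82) were lower. Of 23 proteases and inhibitors, 15 were higher and 5 lower, with a median of 0.70 on the log2 scale. Mmp2, a gelatinase, stood at 136, 133 and 137 TPM in the GCN2-deletion libraries and 7.66, 7.01 and 7.06 TPM in WT (log2 difference 4.05, SE 0.06, limma adjusted p = 1.32e-27). Serpine2 and Serpinf1, both of the serpin family, were higher by 2.77 and 2.13. Timp3, an inhibitor of metalloproteases, was lower, with 121, 108 and 128 TPM in the GCN2-deletion libraries and 273, 298 and 244 TPM in WT (log2 difference -1.18).

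Signalling genes were rearranged in the same mixed way. Among 27 BMP and WNT pathway genes, 16 were higher and 6 lower, with a median log2 difference of 0.45. The ligand Wnt10b stood at 28.4, 25.9 and 31.7 TPM in the GCN2-deletion libraries and 2.31, 1.69 and 1.61 TPM in WT (log2 difference 3.37), while the ligand Bmp4 stood at 2.503, 3.28 and 2.51 TPM in the GCN2-deletion libraries and 57.9, 52.7 and 60.3 TPM in WT. Secreted antagonists moved both ways: Dkk3 and Sfrp2 were higher by log2 differences of 4.10 and 2.06, and Sfrp1 and Grem1 were lower by -2.17 and -1.37. Of 25 receptor tyrosine kinases and ephrins, 14 were higher and 6 lower. Pdgfra, a receptor for platelet-derived growth factor, stood at 24.5, 20.8 and 28.9 TPM in the GCN2-deletion libraries and 3.56, 3.62 and 3.39 TPM in WT (log2 difference 2.496). Epha3 and Efnb1, a receptor and a ligand of the ephrin system, were higher by 2.57 and 2.30, and the collagen receptors Ddr2 and Ddr1 were lower by -0.99 and -0.79.

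Among 25 surface adhesion genes, 14 were higher and 3 lower, with a median log2 difference of 0.40. Alcam (log2 difference 2.46), Ncam1 (2.05) and Cdh11 (1.85), all cell-to-cell adhesion molecules, were higher. The lower ones were Itgb7 (-2.28), an integrin chain, Cd34 (-1.74), a sialomucin, and Itga7 (-1.09), a laminin-binding integrin chain. Of 27 immediate early and ERK feedback genes, 18 were higher, 6 of them by 2-fold, and 2 were lower, 1 of them by 2-fold. The median log2 difference was 0.43. Dusp5, a phosphatase that inactivates ERK, stood at 44.6, 48.4 and 46.7 TPM in the GCN2-deletion libraries and 19.5, 18.1 and 18.1 TPM in WT (log2 difference 1.28), and Klf2 and Klf6 were higher by 1.20 and 1.14. Nr4a2 and Klf4, both transcription factors, were the lower members (log2 differences -1.05 and -0.70). In the IGF axis 5 of 15 were higher and 5 lower, beside 25.4% higher and 26.8% lower among all protein-coding genes tested. The ligand Igf2 and the binding proteins Igfbp2 and Igfbp7 had log2 differences of 1.92, 2.64 and 1.80. The ligand Igf1 and the binding proteins Igfbp6 and Igfbp4 had -1.62, -1.62 and -0.95.

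Interferon-stimulated genes were lower in GCN2-deletion cells, and none of those tested was higher. Of 44 genes on the list 34 were tested, and 30 were lower, 16 of them by 2-fold, with a median log2 difference of -0.995. Without WT replicate 1, 25 were lower and 0 higher. In the DMSO libraries it was 28 lower and 0 higher, with a median of -0.72. Isg15, a ubiquitin-like protein, stood at 3.74, 2.72 and 4.03 TPM in the GCN2-deletion libraries and 24.8, 21.5 and 26.2 TPM in WT (log2 difference -2.49, SE 0.22, limma adjusted p = 2.02e-10). Oasl2, of the oligoadenylate synthetase family, stood at 0.579, 0.346 and 0.255 TPM in the GCN2-deletion libraries and 13.5, 8.70 and 9.32 TPM in WT (log2 difference -3.03, SE 0.16, limma adjusted p = 1.45e-15). The chemokine Cxcl10 and the apoptosis-related Xaf1 had log2 differences of -2.21 and -2.16. These are low to moderate levels in WT, and in each of these genes every GCN2-deletion library lay below every WT library. For Isg15 and Oasl2 the PERK-deletion line lay between the others, with 16.2 ± 0.272 TPM of Isg15 and 2.81 ± 0.841 TPM of Oasl2, and the median log2 difference of the list from that line was -0.69.

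The promoters of Isg15 and Ifit1 are printed as examples because, of the list's promoters, theirs had the most bases within matches to the core of the interferon-stimulated response element (22 and 20). Gbp3, Oas1a, Bst2 and Irgm1 also held overlapping matches (16 bases each), and Irgm1 did not pass (log2 difference -0.17). The motif searched was a TTTC followed, after any 2 bases, by another TTTC, on both strands (read as GAAA on the other), and overlapping matches are joined in the capitals. The Isg15 window is chr4:156200769-156201068 on the minus strand and the Ifit1 window chr19:34640639-34640938 on the plus strand, both RefSeq sequences of GRCm38.p6 with the same limits as above.

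Isg15: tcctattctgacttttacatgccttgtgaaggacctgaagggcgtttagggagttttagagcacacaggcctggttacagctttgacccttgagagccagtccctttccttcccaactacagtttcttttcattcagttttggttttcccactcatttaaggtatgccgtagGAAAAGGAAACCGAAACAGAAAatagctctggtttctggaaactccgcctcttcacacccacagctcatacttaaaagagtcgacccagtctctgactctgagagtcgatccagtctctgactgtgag

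Ifit1: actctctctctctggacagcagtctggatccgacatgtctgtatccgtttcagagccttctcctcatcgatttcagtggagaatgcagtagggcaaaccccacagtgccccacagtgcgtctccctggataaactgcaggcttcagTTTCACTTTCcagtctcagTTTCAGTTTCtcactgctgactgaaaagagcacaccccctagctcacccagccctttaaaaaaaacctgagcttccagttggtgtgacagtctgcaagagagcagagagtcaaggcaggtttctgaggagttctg

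The motif was present in 14 of 26 genes of the list with a promoter (53.8%), and in 3.99% of all genes with one. Ifit1, chosen for its promoter after its values were seen, stood at 0.524, 0.579 and 0.447 TPM in the GCN2-deletion libraries and 2.93, 2.33 and 1.94 TPM in WT (log2 difference -1.15).

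MHC class I genes and the machinery that loads them with peptide were lower as well. Of 17 tested, 15 were lower, 8 of them by 2-fold, and 0 higher, with a median log2 difference of -0.93. H2-K1, a classical class I heavy chain, stood at 13.6, 13.3 and 12.9 TPM in the GCN2-deletion libraries and 62.8, 59.8 and 71.1 TPM in WT (log2 difference -2.20, SE 0.07, limma adjusted p = 3.05e-20). The peptide transporter chain Tap2 stood at 1.81, 2.74 and 2.42 TPM in the GCN2-deletion libraries and 12.1, 9.57 and 12.3 TPM in WT (log2 difference -1.89), and the immunoproteasome subunit Psmb8 had a log2 difference of -1.70. The H2 genes are close copies of each other and vary between strains, so the level of a single one such as H2-Q4 (log2 difference -1.96) is uncertain. The order of the lines was not that of the interferon genes: H2-K1 averaged 218 ± 13.2 TPM in the PERK-deletion line, above both others, and the median log2 difference of the list from that line was -1.39. The response element core lay in the promoter of 3 of 14 of these genes (21.4%). Of the list, H2-T23 and H2-T22 lie on chromosome 17, where 41.4% of all genes tested were lower. The part of that shift in the list was not tested. B2m, the class I light chain gene, on chromosome 2, averaged 476 TPM in the GCN2-deletion line and 502 TPM in WT. It did not pass (log2 difference -0.08, limma adjusted p = 0.186). H2-T23, H2-T22 and B2m were named after their values were seen.

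Cytokines and NF-kappaB targets were divided, with 10 higher and 7 lower of 20 tested. The chemokine Ccl2, which recruits monocytes, stood at 21.6, 22.6 and 22.7 TPM in the GCN2-deletion libraries and 163, 138 and 163 TPM in WT (log2 difference -2.73, SE 0.10, limma adjusted p = 1.75e-19). The complement gene C3 and the chemokines Ccl7 and Ccl5 had log2 differences of -2.57, -2.13 and -1.68. Ptgs2, the inducible prostaglandin synthase, was higher, with 110, 99.6 and 131 TPM in the GCN2-deletion libraries and 24.6, 23.4 and 19.3 TPM in WT (log2 difference 2.29), as was Tnfaip3, a feedback inhibitor of NF-kappaB, by 1.16. Of 12 macrophage markers 2 passed the filter, and these summed to 10.7, 11.3 and 8.38 TPM in the GCN2-deletion libraries and 16.0, 12.8 and 12.3 TPM in WT. The part of such cells in these values was not tested.

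Lists of metabolism and antioxidant defence held fewer large differences. Of 25 sterol synthesis and uptake genes, 15 were lower and 3 higher, with a median log2 difference of -0.38. Sqle, Lss and Cyp51, enzymes of cholesterol synthesis, stood at log2 differences of -1.01, -1.004 and -0.93, and Insig2, a brake on that pathway, at -1.08. Against the PERK-deletion line the list median was 0.13. Of 25 NRF2 antioxidant genes, 13 were lower and 5 higher, led by the glutathione transferases Gstm2 (-1.90), Gsta4 (-1.73) and Gstm1 (-1.30) and the epoxide hydrolase Ephx1 (-1.58). Of the 24 glycolysis and hypoxia genes, 8 were higher and 6 lower (58.3% passed). Of all protein-coding genes tested, 25.4% were higher and 26.8% lower. Members that passed included Adm (2.32), adrenomedullin, and Pdk1 (-1.20), which restrains entry of pyruvate into mitochondria.

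Proliferation genes differed little in size. Of 26 DNA replication genes, 13 were lower and 2 higher, with a median log2 difference of -0.16, and Pcna, the sliding clamp, stood at 299, 284 and 281 TPM in the GCN2-deletion libraries and 344, 429 and 421 TPM in WT (log2 difference -0.46). Of 23 mitotic genes, 5 were higher and 7 lower, near the shares of all genes (21.2% and 23.2%), with a median of -0.01. The balance of this list was not stable: 6 were higher and 4 lower without WT replicate 1, and 7 were higher and 2 lower in the DMSO libraries. Among 28 p53 targets, CDK inhibitors and D cyclins, 12 were higher and 5 lower. Pmaip1, a pro-apoptotic p53 target, stood at 8.32, 8.46 and 8.55 TPM in the GCN2-deletion libraries and 0.570, 0.364 and 0.220 TPM in WT (log2 difference 2.78), Ccnd2, a D cyclin, was higher by 1.77 and Ccnd1, another, was lower by -0.64.

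The remaining lists held mostly small differences. ER chaperones and unfolded protein response sensors had 8 of 22 higher and 5 lower, with a median of 0.03 on the log2 scale. Heat shock genes had 6 of 21 higher and 11 lower, with a median of -0.22, 12 lower in the DMSO libraries and 7 lower with median-of-ratios scaling. Lysosome and autophagy genes had 8 of 25 higher and 8 lower. Beside these counts, 25.4% of all protein-coding genes tested were higher and 26.8% lower. Of 59 cytosolic ribosomal protein genes, 14 were higher and 11 lower untreated, 5 higher and 14 lower without WT replicate 1, and 2 higher and 22 lower in the DMSO libraries. Of 13 mitochondrially encoded protein genes 5 were lower and 0 higher, and in the DMSO libraries 2 were lower and 1 higher.

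**Figure D5:**
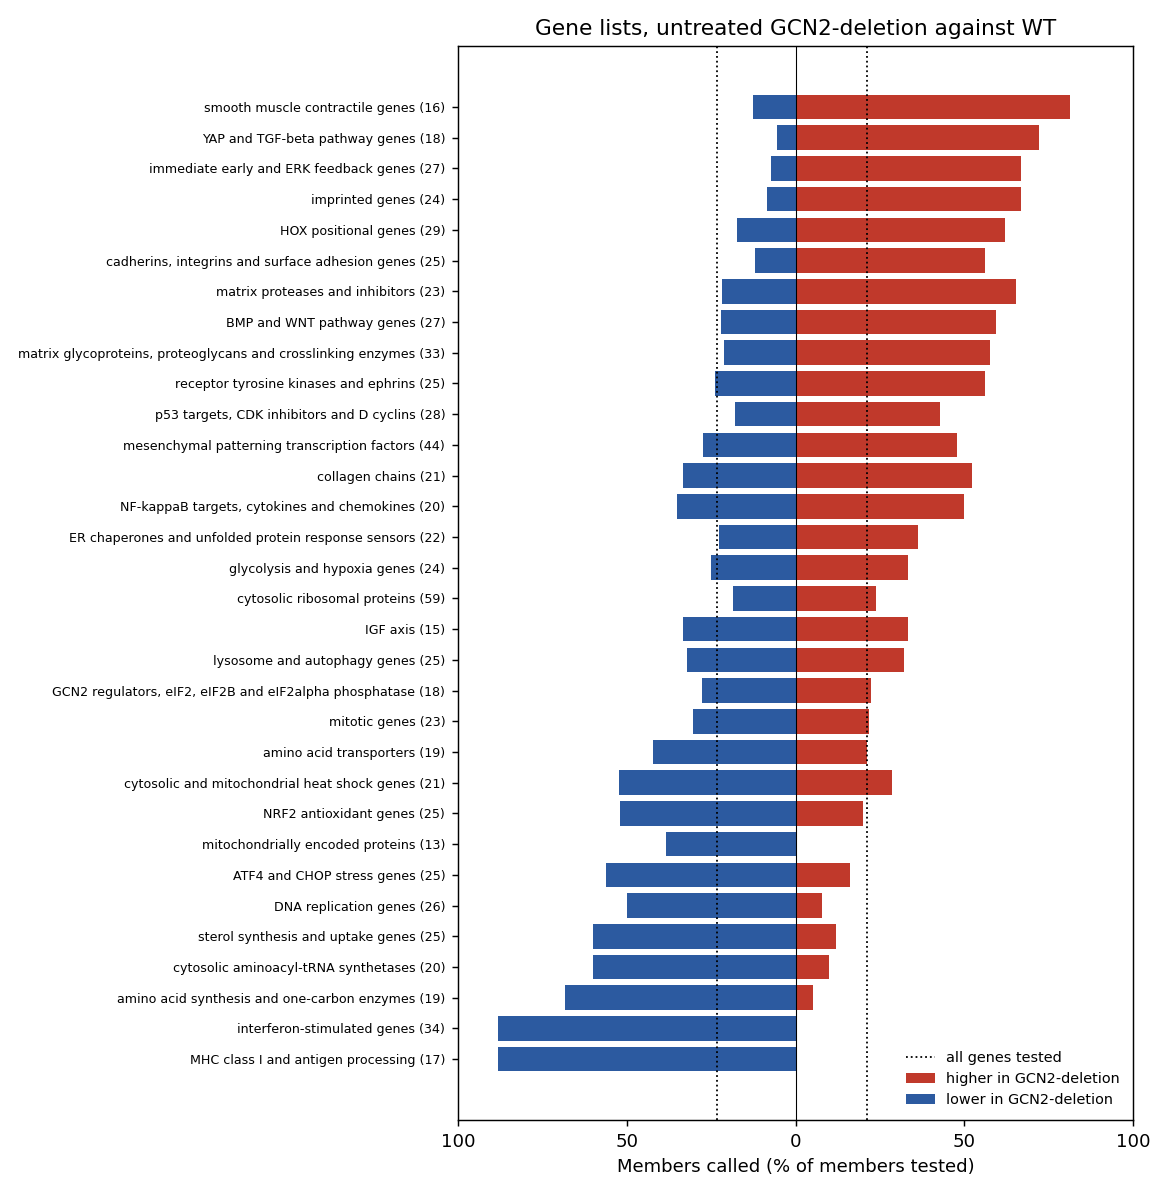
Share of tested members called higher (right) and lower (left) in untreated GCN2-deletion cells, relative to WT, for 32 gene lists, with the number tested in brackets. Dotted lines mark the shares among all genes tested, 21.2% higher and 23.2% lower. Interferon and MHC class I lists have lower members alone, and the contractile list has the largest share of higher members, 13 of 16.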

How the data were processed

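RNA from untreated and treated mouse embryonic fibroblast lines was extracted with Trizol and sequenced from stranded TruSeq total RNA libraries, per the labels' protocols. The authors deposited TPM values for 54735 gene symbols in 36 libraries, 12 groups of 3. The submitters' processing notes name FastQC, kallisto and the mm10 build, without versions; how transcripts were summed to genes is not given in the sources used here. TPM sums to a fixed total, so read depth is unknown and a high transcript lowers the others. Every column was matched to a sample by its name.

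Values were analysed as log2(TPM + 1), which understates the change of low genes. Genes with 1 TPM or more in at least 3 libraries were kept, 16083 in all, of which 12206 are protein coding. All 36 libraries entered a linear model with 1 mean per group (limma 3.58.1 under R 4.3.3; trended, robust prior; 24 residual degrees of freedom), and p-values were adjusted by Benjamini-Hochberg over all genes tested. Genes with an adjusted p under 0.05 were called. On simulated data with 100 genes changed by 1 and 100 by 0.5 on the log2 scale, between the untreated GCN2-deletion and WT groups and over the 16083 genes, the fit recovered 91% and 66%, with 11 false calls. The changed genes were drawn only from genes above a minimum mean level, and the noise was normal and independent between libraries. Far fewer genes were changed than the 44.4% called in the data, so these rates do not extend to low genes or to the data as a whole. Symbols were matched to GENCODE M21 on GRCm38 (54183 matched). Near-identical copies were sought with BLAST 2.17.0, at 95% identity over 50% of the length. Python 3.11.15, pandas 2.3.3 and matplotlib 3.10.9 were used for tables and figures.

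The text names the 4 eIF2alpha kinases, the 15 protein-coding genes that rose and the 15 that fell most among those with a mean of 5 TPM in a compared group and no overlap between libraries, up to 4 genes per list and direction that passed with a mean of 2 TPM, all sex-linked genes and genes within 5 Mb of Eif2ak4 that passed by 2-fold. Genes outside these rules are named as such or to complete a small count. Some genes that meet the rules are not reported here. The members and gene lists were chosen with earlier results of these data known. Replicate numbers did not pair the samples: the deviations of same-numbered libraries correlated at -0.0701, -0.102 and -0.179. Alternatives tried were other filters, pseudocounts, scalings, sample weights, sets of libraries and a replicate block.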

Additional observations from a re-analysis of the deposited data

Results flagged for a closer look

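Mir323, a microRNA gene on chromosome 12 (GRCm38, 109712508 to 109712593), was the gene whose line difference changed between untreated and DMSO cells. It was listed at 0 in all untreated libraries of both lines. With DMSO it stood at 6.24, 4.14 and 2.23 TPM in the GCN2-deletion libraries and was listed at 0 in the WT libraries. The untreated line difference minus the DMSO line difference was -2.304 on the log2(TPM + 1) scale (limma adjusted p = 1.38e-06). The read number behind these values is unknown.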

How the results depend on the processing

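Directions held for most results, and counts moved more than single genes. With the spread estimated from the compared groups alone, 2221 genes were higher and 2043 lower. With array weights 1996 were lower, and the count against the PERK-deletion line was 12545; the weights' default method did not converge, so weights estimated gene by gene were added after seeing the data. With a pseudocount of 0.1 the 2-fold lower count was 1052. For the change of the line difference between untreated and DMSO cells, the count was 25 with weights estimated gene by gene, 2 with no filter, and 0 with a filter of 5 TPM, with protein-coding genes alone and with the compared groups alone. Leaving out each replicate in turn gave 3035 to 3462 genes higher, 2866 to 4674 lower, 857 to 941 higher by 2-fold, 541 to 843 lower by 2-fold, 6147 to 6541 called with DMSO, 6545 to 7723 called against the PERK-deletion line, 1 to 4 for the change of the line difference, and -2.148 to -1.931 for the log2 difference of Eif2ak4. With a replicate block, 3423 genes were higher and 3781 lower. The sign turned for Ddx3x (-0.3219 to 0.02623 leaving out each replicate, positive without WT replicate 2, and 0.04892 with DMSO), Eif2s3x (0.01812 with median-of-ratios scaling, -0.1121 to 0.006258 leaving out each replicate, positive without GCN2-deletion replicate 2), Ftl1 (-0.0193 with DMSO) and Kdm6a (0.05807 with DMSO). The cause of these shifts was not tested. Of 286 genes that the naming rules pick, not all of them named in the text, 241 kept their direction and side of the threshold under every setting run for them, at most 18. The median log2 difference of all genes lay between -0.11 and 0.06. TPM keeps no depth, so no counting interval can be given for low genes, and the technical replicates carry no spread between independent lines.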
